A study of Mus musculus with 14 samples.

Results

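Epiblast stem cells (EpiSC) treated with STM2457 were compared with EpiSC given the solvent DMSO. The comparison used all 4 EpiSC libraries of the 14 libraries in the series, 2 per arm, chosen by their labels alone, and every gene of the count table entered the filter: 14800 of 55416 genes had enough reads to be tested. The other libraries came from trophoectoderm stem cells (TSC, 4 libraries) and extraembryonic endoderm stem cells (XEN, 6 libraries), both labelled wild type. Both EpiSC arms carried the genotype XmolXmus-ΔTsix on a hybrid background of Mus molossinus and Mus musculus, and both grew in a serum replacement medium with Fgf2 and Activin A. The treated arm received STM2457 at 50 µM for 12 h, and total RNA was sequenced after stranded library preparation. The labels name 1 EpiSC line and nothing ties its replicates to separate cultures, so each p-value reflects a spread among libraries that may be purely technical.

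STM2457 is an inhibitor of METTL3, the catalytic subunit of the complex that writes N6-methyladenosine (m6A) on messenger RNA. The mark is placed during transcription, is recognised by YTH-domain proteins, and is known above all for shortening the life of the messages that carry it. It is densest in long exons and near stop codons, and is sparse where exon junctions lie close together. EpiSC represent the epiblast after implantation: they are held in the primed state of pluripotency by FGF and Activin signals, keep 1 X chromosome silent through the noncoding RNA Xist, and turn on primitive streak genes when WNT signals rise.

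The 4 libraries held 18640099 and 19331505 counts with DMSO and 18694828 and 21097380 counts with STM2457. Replicates differed by more than counting noise in both arms, and the biological coefficient of variation was 5.23%. All 12 EpiSC markers passed the filter. Levels are in CPM, counts relative to library size scaled by the TMM method. The markers summed to 1908 and 1980 CPM with DMSO and 1739 and 1830 CPM with STM2457. Not all of them set EpiSC apart from the other lines. In the scaling of all 14 libraries, Pou5f1 had a DMSO mean of 728 CPM in EpiSC and 0 in TSC, and Nanog 53.6 and 0.416 CPM. Sox2 had 80.3 CPM in EpiSC and 277 in TSC, and Pou3f1 121 and 242 CPM. Among the markers of other cells, 6 of 9 for naive embryonic stem cells passed the filter, summing to between 115 and 126 CPM in every library, most of it Esrrb, and 6 of 9 for fibroblast feeders summed to 62.1 and 55.0 CPM with DMSO and 50.3 and 47.4 CPM with STM2457. Of 8 trophoblast markers 5 were tested, summing to 68.7 and 72.3 CPM with DMSO and 73.2 and 77.3 CPM with STM2457, with Gata3 called higher (1.91 and 1.72 to 2.54 and 3.85 CPM; 0.82 ± 0.28), a call lost with DESeq2 and without DMSO replicate 2 or STM2457 replicate 2. Of 9 primitive endoderm markers 6 were tested, summing to 23.7 and 21.6 CPM with DMSO and 28.6 and 27.1 CPM with STM2457, with Dab2 called higher (12.9 and 10.8 to 16.8 and 16.8 CPM; 0.51 ± 0.13). Most of the trophoblast sum was Eomes, which is also a listed streak marker. Of 7 neuroectoderm markers 3 were tested, with 1 called higher and 1 lower. They summed to 374 and 335 CPM with DMSO and 399 and 474 CPM with STM2457, most of it Nes. The part of such cells in the results was not tested. The trophoblast genes Cdx2 and Elf5 and the primitive endoderm gene Hnf4a were near 0 in both arms, and the 7 listed Y-linked genes had 0 counts. In bulk RNA, fewer cells of a type and less RNA per cell cannot be told apart.

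A gene was called when its Benjamini-Hochberg adjusted p in edgeR's quasi-likelihood test was under 0.05. Of the 14800 genes, 4321 (29.2%) were called, 2248 of them higher (15.2%) and 2073 lower (14.0%) with STM2457. The libraries of the 2 arms did not overlap in any called gene. Remarks on separated arms below therefore describe the called genes and add no evidence to a call. Most of these changes were small: the median size was 1.28-fold, 80.0% were under 1.5-fold, and 136 genes rose and 97 fell by at least 2-fold. A test against a minimum change of 1.5-fold left 58 genes, 46 higher and 12 lower. Scaling to ribosomal protein genes in place of TMM moved the median of all genes from 0.0016 to 0.145 on the log2 scale, and the share of calls that were higher moved from 52.0% to 85.9%. Directions are therefore relative to the bulk of expressed genes. DESeq2 called 2868 genes and a model of all 14 libraries 309, so most list counts given here were smaller in both. The plot of fold change against level places the leading cytokine and WNT genes well outside the cloud of small changes.

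**Figure D1:**
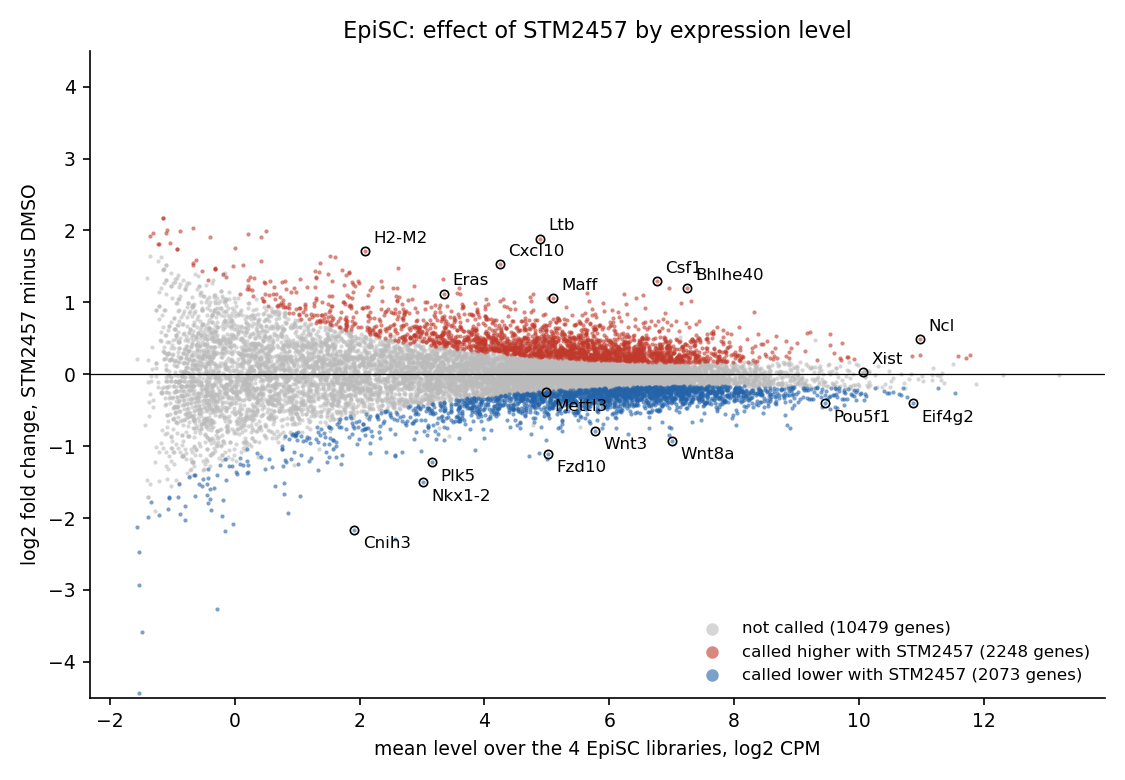
Each point is 1 of the 14800 tested genes, with its mean level over the 4 EpiSC libraries (log2 CPM) on the horizontal axis and its log2 fold change, STM2457 minus DMSO, on the vertical axis; red and blue mark the 2248 genes called higher and the 2073 called lower. Ltb, Cxcl10 and Csf1 lie highest among the labelled genes of medium level, Cnih3, Nkx1-2, Plk5 and Fzd10 lowest, and Xist sits on the zero line.

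Lists of genes sharing a pathway or complex were read against those background shares. NF-kB targets, immediate early, interferon, FGF-ERK, cholesterol and Hippo genes had larger shares of members called higher than the background of 15.2%. Respiratory chain, proteasome, cytosolic ribosome, splicing, mitosis and p53 genes had larger shares called lower than the background of 14.0%. Other lists were above the background on both sides, such as the mitochondrial ribosomal proteins (25 of 76 higher and 19 lower), the respiratory assembly factors (19.5% each way) and the Polycomb genes (21.2% each way). The bar plot of called shares shows the 2 directions by list. Since lists and members were chosen with results of these data known, their counts describe the lists and are not tested against other genes.

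**Figure D2:**
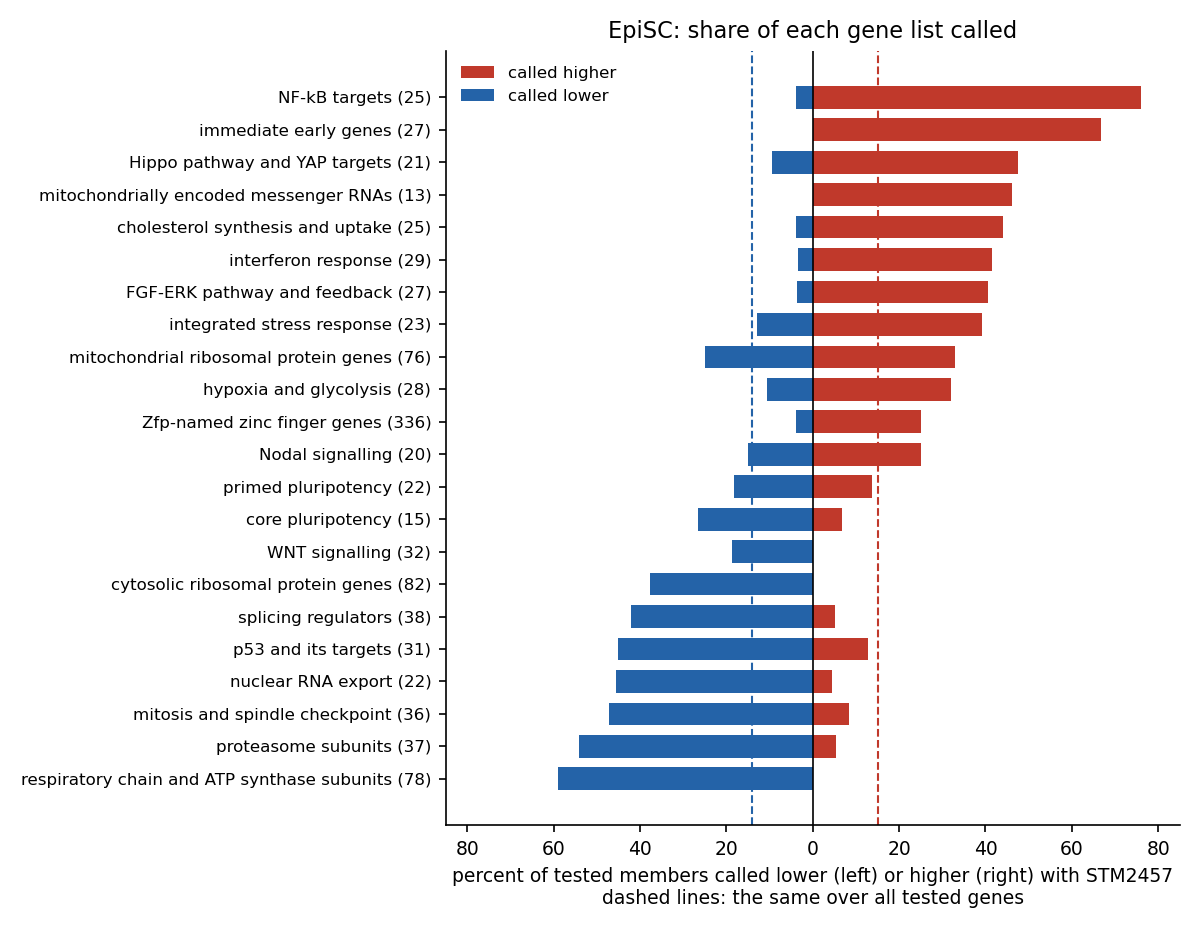
Bars give the percent of each list's tested members (number in brackets) called higher with STM2457 in red to the right and called lower in blue to the left; dashed lines mark 15.2% and 14.0%, the same shares over all tested genes. NF-kB targets reach 76% higher, and respiratory chain and ATP synthase subunits reach 59% lower with no member higher.

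Mettl3 (ENSMUSG00000022160, chromosome 14), the target of the drug, was measured at 35.5 and 33.1 CPM with DMSO and 29.0 and 28.7 CPM with STM2457. Its log2 fold change was -0.25 ± 0.09 (SE; adjusted p = 0.0384), but an enzyme inhibitor leaves the gene in place, so this value does not check the labels. The call was lost with DESeq2 (adjusted p = 0.124), with ribosomal protein scaling (0.465), in a model of all 14 libraries (0.439) and without DMSO replicate 1 (0.186), STM2457 replicate 1 (0.11) or STM2457 replicate 2 (0.146). Of the 8 members of the writer complex, 4 rose and Mettl3 fell, with a median log2 fold change of 0.22 against 0.0016 over all tested genes. Wtap, the subunit that brings the catalytic pair to nuclear speckles, went from 81.0 and 90.2 CPM to 142 and 150.2 CPM (0.77 ± 0.07, adjusted p = 2.65e-08). Cbll1, the Hakai subunit, rose by 0.60 ± 0.08 and Virma, the scaffold of the complex, by 0.29 ± 0.06, while Mettl14, the partner of METTL3, had a log2 fold change of -0.03 and was not called. Of the 11 readers and erasers 4 rose and 2 fell (0 lower without DMSO replicate 2 or STM2457 replicate 1). The risers included Ythdc1, the nuclear reader (114 and 122 CPM against 159 and 166 CPM; 0.46 ± 0.06), and Ythdf2, the reader that recruits deadenylases (99.4 and 102 against 139.6 and 138 CPM; 0.46 ± 0.06); the erasers Alkbh5 and Fto were not called.

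Targets of NF-kB, the family of transcription factors that drives cytokine and chemokine genes, held 4 of the 15 largest rises. Of 35 listed genes 25 were tested, and 19 rose and 1 fell; their median log2 fold change was 0.51. Ltb (ENSMUSG00000024399, chromosome 17), which encodes the membrane cytokine lymphotoxin beta, stood at 12.6 and 12.7 CPM with DMSO and 48.7 and 44.9 CPM with STM2457 (1.89 ± 0.10, adjusted p = 5.55e-12). Cxcl10 (ENSMUSG00000034855, chromosome 5), a chemokine that also answers to interferon, stood at 9.65 and 9.91 CPM with DMSO and 28.4 and 28.3 CPM with STM2457 (1.54 ± 0.11, adjusted p = 1.92e-09). In both genes the treated libraries lay far above the controls and the replicates lay close together. Csf1 (ENSMUSG00000014599, chromosome 3), the macrophage growth factor, was the most abundant of the cytokines, at 62.5 and 63.1 CPM with DMSO and 149 and 160.0 CPM with STM2457 (1.30 ± 0.07, adjusted p = 5.55e-12). The chemokine gene Ccl2 went from 3.49 and 3.02 CPM to 8.37 and 9.72 CPM (1.48 ± 0.18).

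The promoters of Ltb, Cxcl10 and Csf1 are shown because they held kB letters, a loose form of the site that NF-kB dimers bind. Ccl2 was not among the 12 list members in which such letters were found. The form leaves 4 inner bases open, so a match need not be such a site. Each line gives the 250 bases before the RefSeq start on the gene's strand (GRCm38.p6), with matches to GGGA, any 4 bases and CC on either strand in capitals. The 4th promoter, of the mitosis gene Cdc20 described further on, has the letters TTTGAA of the cell cycle homology region (CHR) in capitals.
Ltb, chr17:35194257-35194506, plus strand: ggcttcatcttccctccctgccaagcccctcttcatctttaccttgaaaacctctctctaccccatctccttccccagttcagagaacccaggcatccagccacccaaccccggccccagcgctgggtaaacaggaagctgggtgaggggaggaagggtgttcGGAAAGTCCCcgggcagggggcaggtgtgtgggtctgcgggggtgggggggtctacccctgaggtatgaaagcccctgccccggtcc
Cxcl10, chr5:92348890-92349139, minus strand: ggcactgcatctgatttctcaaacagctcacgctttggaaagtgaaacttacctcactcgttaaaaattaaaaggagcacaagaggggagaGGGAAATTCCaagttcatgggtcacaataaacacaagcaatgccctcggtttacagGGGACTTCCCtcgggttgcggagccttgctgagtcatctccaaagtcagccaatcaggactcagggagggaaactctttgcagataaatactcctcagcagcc
Csf1, chr3:107760470-107760719, minus strand: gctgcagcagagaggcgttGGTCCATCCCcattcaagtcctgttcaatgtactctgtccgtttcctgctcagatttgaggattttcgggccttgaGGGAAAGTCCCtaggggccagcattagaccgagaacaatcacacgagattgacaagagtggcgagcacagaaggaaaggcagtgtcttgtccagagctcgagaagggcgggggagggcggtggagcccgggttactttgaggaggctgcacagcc
Cdc20, chr4:118437344-118437593, minus strand: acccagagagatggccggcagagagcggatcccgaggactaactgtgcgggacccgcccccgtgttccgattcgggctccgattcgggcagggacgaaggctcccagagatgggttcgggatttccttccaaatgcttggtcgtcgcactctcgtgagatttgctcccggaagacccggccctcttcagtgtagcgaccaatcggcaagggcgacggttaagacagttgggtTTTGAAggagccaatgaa
In Ltb the match begins 87 bases before the start and lies on the opposite strand. In Cxcl10 there are 2 stretches, at 159 and 103 bases, the latter matching on both strands. In Csf1 a first match begins at 231 bases and a pair of overlapping matches, 1 per strand, at 155 and 154 bases.

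RefSeq promoters were matched for 19 of the 25 tested NF-kB targets, and 12 of the 19 held the kB letters. Among all 27025 promoters of this length 17.3% held them, and among the 10662 promoters of tested genes 22.8%. The interferon-stimulated response element, searched as GAAA, any 2 bases and GAAA, was in 7 of 25 interferon list promoters and in 2.3% of those of tested genes. The sterol element TCACNCCAC was in 1 of 18 cholesterol list promoters (0.957% of tested), and TGANTCA, the AP-1 site, in 0 of 21 immediate early promoters (3.87% of tested). TGACGTCA, the cyclic AMP element, was in 2 of the 21 (2.79% of tested). A match describes the letters in this window and nothing about binding.

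The NF-kB system's own regulators rose as well. Tnfaip3, the deubiquitinase A20 that ends the signal, went from 11.0 and 11.0 CPM with DMSO to 19.2 and 23.1 CPM with STM2457 (0.95 ± 0.12, adjusted p = 6.76e-06). Nfkbie, an inhibitor that holds NF-kB in the cytoplasm, went from 5.67 and 6.47 to 10.0 and 13.1 CPM (0.93 ± 0.16), and Nfkbia, the inhibitor best known for its rapid feedback, from 31.2 and 29.3 to 42.2 and 37.2 CPM (0.39 ± 0.09). Among the subunits themselves Rel rose by 0.86, Relb by 0.51, Nfkb2 by 0.33, Nfkb1 by 0.31 and Rela by 0.29 on the log2 scale; the call of Rela was lost without DMSO replicate 1 (adjusted p = 0.0614) or STM2457 replicate 1 (0.0632). The antiapoptotic target Birc3 rose by 0.83 ± 0.14 and Tnfaip2 by 0.95 ± 0.13. Sod2, the mitochondrial superoxide dismutase and another target, was the 1 that fell, from 86.1 and 78.4 to 69.0 and 71.1 CPM (-0.23 ± 0.07); this call was lost with DESeq2 (adjusted p = 0.0525), with ribosomal protein scaling (0.486) and without DMSO replicate 1 (0.135) or STM2457 replicate 1 (0.107). In the model of all 14 libraries the list kept 5 genes called higher; the calls of Csf1 (adjusted p = 0.297) and Ccl2 (0.265) were lost there.

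Other immune genes stood among the 15 largest rises. H2-M2, a nonclassical MHC class I gene, went from 1.91 and 2.09 CPM to 6.52 and 6.57 CPM (1.71 ± 0.21, adjusted p = 3.85e-06). Il18bp, the soluble blocker of interleukin 18, went from 2.78 and 3.08 to 7.36 and 7.04 CPM, Il15ra, the interleukin 15 receptor alpha chain, from 2.34 and 2.03 to 4.87 and 5.59 CPM, and Sema7a, a membrane semaphorin, from 2.40 and 2.24 to 5.03 and 6.15 CPM. All of these levels were low in control cells, and the arms did not overlap. Of 29 tested interferon response genes 12 rose and 1 fell, with a median of 0.34. Gbp2, a guanylate-binding protein, went from 23.3 and 21.5 to 38.5 and 41.8 CPM (0.85 ± 0.09), and the class I genes H2-K1 and H2-D1 rose by 0.41 and 0.28 (H2-D1 was not called without STM2457 replicate 1, adjusted p = 0.0529). DESeq2 called 8 of the list higher. Stat2, which carries the interferon signal, had a log2 fold change of -0.06 and was not called; Isg15 was low, at 0.491 and 0.521 CPM with DMSO and 1.01 and 1.17 CPM with STM2457, and was not called either. Of 12 blood and endothelial markers 3 were tested, summing to 13.2 and 12.8 CPM with DMSO and 19.3 and 17.3 CPM with STM2457; the part of such cells in the immune gene values was not tested.

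Immediate early genes, which answer to growth factors and stress within minutes and whose messages are short-lived, rose as a group: 18 of 27 tested were called higher and 0 lower, with a median of 0.43. Junb, an AP-1 subunit, stood at 63.1 and 68.7 CPM with DMSO and 119.8 and 129.5 CPM with STM2457 (0.92 ± 0.07, adjusted p = 3.32e-09). Zfp36, which encodes a destabiliser of AU-rich messages, stood at 37.1 and 33.2 CPM with DMSO and 58.1 and 57.3 CPM with STM2457 (0.72 ± 0.08), and Jund, another AP-1 subunit, at 189 and 191 CPM with DMSO and 289 and 279.8 CPM with STM2457 (0.58 ± 0.06). In these genes both treated libraries exceeded both controls. Egr3, an early growth response factor, rose from a low level, 1.69 and 2.19 CPM, to 4.34 and 6.01 CPM (1.42 ± 0.25), and Maff, a small MAF protein gene, by 1.06 ± 0.09 (adjusted p = 1.37e-08). Fos, Atf3 and Btg2, at 0.20, 0.05 and -0.14, did not pass the test. The model of all 14 libraries kept 3 of the 18 calls; Junb (adjusted p = 0.124), Jund (0.486) and Egr3 (0.0706) lost theirs.

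The FGF-ERK pathway, on which EpiSC depend, was read from ligands to feedback genes: 11 of 27 listed genes rose and 1 fell, with a median of 0.18. Phlda1, a gene induced by ERK, stood at 44.4 and 48.1 CPM with DMSO and 87.3 and 84.4 CPM with STM2457 (0.89 ± 0.07, adjusted p = 1.37e-08). Dusp6, the phosphatase that switches ERK off, stood at 301 and 299 CPM with DMSO and 401 and 403 CPM with STM2457 (0.42 ± 0.06), and Ier3, another early response gene, at 38.7 and 39.1 CPM with DMSO and 76.4 and 63.4 CPM with STM2457 (0.84 ± 0.09). Fgf5, the ligand that marks the primed epiblast, rose from 46.9 and 61.9 to 85.5 and 96.0 CPM (0.74 ± 0.12). The ligands Fgf4 and Fgf8 (-0.39 and -0.26) and the main receptor Fgfr1 (-0.11) were not called. The transcription factor Etv1 was the 1 that fell (-0.36 ± 0.07; adjusted p = 0.0511 with ribosomal protein scaling), and its relatives Etv4 and Etv5 were not called.

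Several single regulators rose from higher levels; Phax, Cited2 and Noct were chosen after their values were seen. Bhlhe40, a repressor of the circadian clock, stood at 89.6 and 93.8 CPM with DMSO and 210.4 and 211 CPM with STM2457 (1.20 ± 0.06, adjusted p = 5.55e-12). Phax, the adaptor that exports small nuclear RNAs, stood at 76.5 and 74.5 CPM with DMSO and 169 and 176 CPM with STM2457 (1.20 ± 0.06), and Nxt1, the cofactor of the messenger RNA exporter, at 46.2 and 49.2 CPM with DMSO and 106 and 101 CPM with STM2457 (1.12 ± 0.07). In these genes the replicates lay close together and the arms more than 2-fold apart. Cited2, a CBP and p300 cofactor, rose by 1.13 ± 0.08, and Noct, a circadian phosphatase, by 1.11 ± 0.07. These 5 calls held under every alternative tried. Nxt1 stood against its list: of 22 nuclear RNA export genes it alone rose and 10 fell, among them Thoc6 (-0.60 ± 0.09) and Thoc2 (-0.31 ± 0.06) of the THO complex; with ribosomal protein scaling 4 were higher and 1 lower, and Thoc2 was not called (adjusted p = 0.114). In the list of 11 RNase P and MRP subunits, which process transfer and ribosomal RNA, 4 rose and 0 fell: Pop7 from 14.3 and 16.8 to 29.1 and 29.5 CPM (0.91 ± 0.11), Rpp38 from 18.3 and 16.7 to 31.3 and 32.9 CPM (0.87 ± 0.10), Rpp25l by 0.65 ± 0.09 and Rpp25 by 0.81 ± 0.19.

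**Figure D3:**
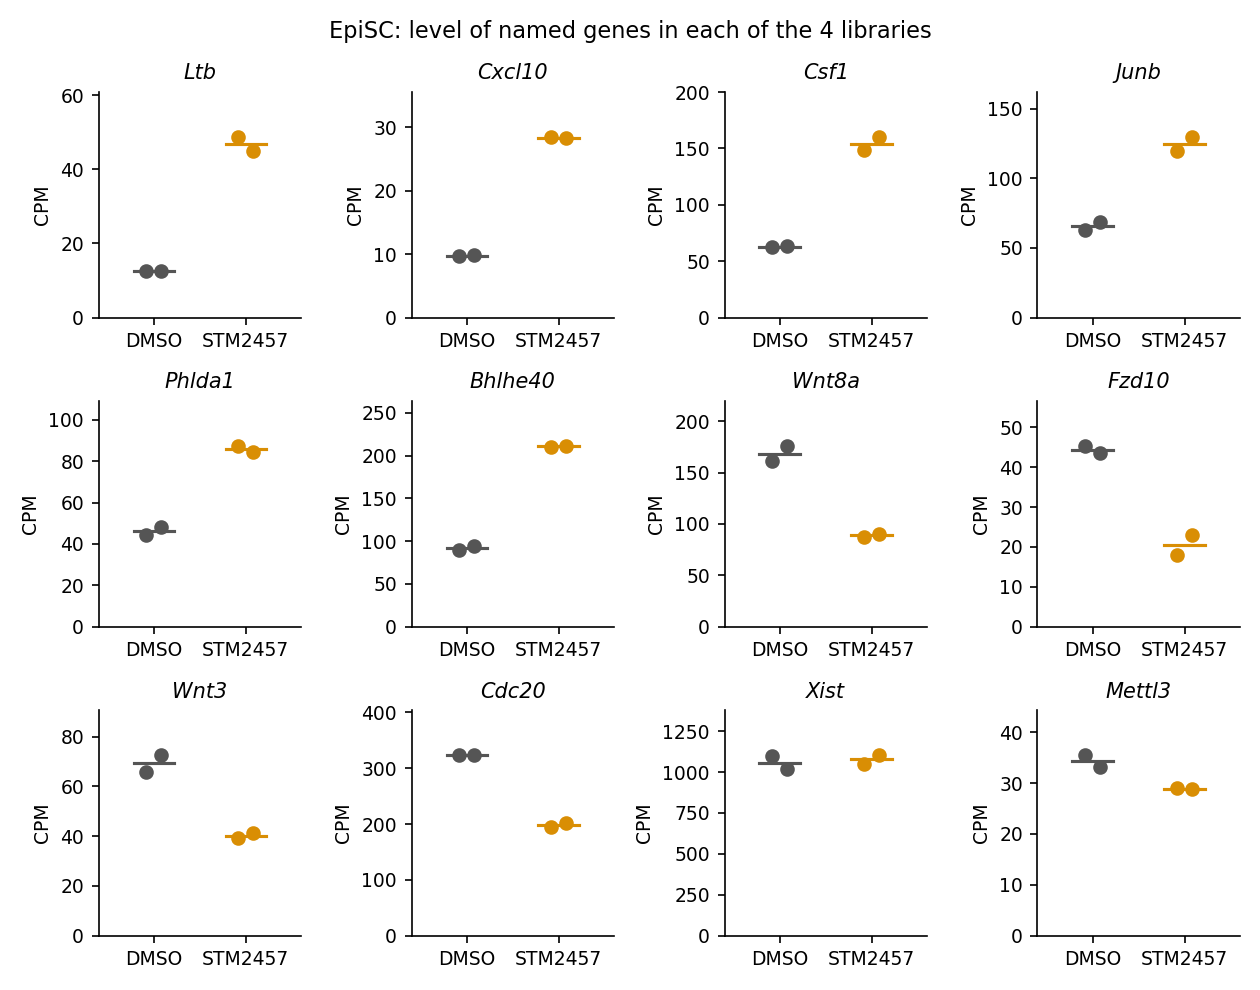
Each panel shows 1 gene, with its level in CPM on a vertical axis from 0, 2 DMSO and 2 STM2457 libraries as points and the mean of each arm as a bar. The arms are separated in each panel except that of Xist, whose 4 libraries interleave.

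The WNT ligand gene Wnt8a and the receptor gene Fzd10 were among the 15 largest falls. The WNT list as a whole had 18.8% of its tested members called lower, near the background of 14.0%. Its share called in either direction was also 18.8%, below the background of 29.2%. Of 32 tested WNT genes 6 fell and 0 rose, although the list's median was only -0.018; without DMSO replicate 1 the counts were 7 and 2. Wnt8a (ENSMUSG00000012282, chromosome 18), a ligand of the early streak, stood at 161 and 176 CPM with DMSO and 87.7 and 89.8 CPM with STM2457 (-0.92 ± 0.07, adjusted p = 1.01e-09). Wnt3 (ENSMUSG00000000125, chromosome 11), the ligand needed for streak formation, stood at 65.8 and 72.5 CPM with DMSO and 39.2 and 41.2 CPM with STM2457 (-0.78 ± 0.08, adjusted p = 1.98e-07). The receptor Fzd10 (ENSMUSG00000081683, chromosome 5) stood at 45.3 and 43.5 CPM with DMSO and 18.1 and 23.1 CPM with STM2457 (-1.10 ± 0.10, adjusted p = 5.67e-08). In all 3 both treated libraries lay well below both controls. The transcriptional readouts Axin2 (-0.37 ± 0.12, adjusted p = 0.0209) and Lef1 (-0.35 ± 0.07) also fell, as did Ctnnb1, which encodes beta-catenin (848 and 830.0 against 695 and 682 CPM; -0.28 ± 0.07). These 3 calls were lost with ribosomal protein scaling (adjusted p = 0.157, 0.0662 and 0.211), and that of Axin2 also with DESeq2 (0.0786) and without DMSO replicate 2 (0.212) or STM2457 replicate 1 (0.0746). Sp5 and Notum, further targets, had values of -0.43 and -1.13 and were not called. With ribosomal protein scaling the list's median turned positive, at 0.12, with 9 genes called higher and 3 lower.

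The streak gene T, which encodes Brachyury, stood at 48.3 and 44.3 CPM with DMSO and 23.1 and 32.6 CPM with STM2457 (-0.73 ± 0.13, adjusted p = 0.00193); its call was lost in the model of all 14 libraries (adjusted p = 0.102). Eomes, Mixl1 and Gsc, at 0.08, 0.45 and 0.63, were not called. Of the 16 tested streak and mesoderm genes 3 fell (18.8%, against a background of 14.0%) and 1 rose (6.25%, against 15.2%). The listed streak markers summed to 184 and 190 CPM with DMSO and 133 and 151 CPM with STM2457. Nkx1-2, a homeobox gene of the caudal epiblast, fell from 12.1 and 11.8 to 4.56 and 3.90 CPM (-1.50 ± 0.16, adjusted p = 5.43e-07). In the Nodal pathway, which Activin A feeds in this medium, 5 of 20 rose and 3 fell; without STM2457 replicate 2 the counts were 3 and 1, and without DMSO replicate 1 they were 3 and 2. With all 4 libraries the Nodal shares were 25% higher, against a background of 15.2%, and 15% lower, near the background of 14.0%. Lefty1, the secreted inhibitor and a direct target of the pathway, stood at 587 and 612 CPM with DMSO and 386 and 327 CPM with STM2457 (-0.75 ± 0.07, adjusted p = 1.32e-07). Smad7 and Tgif1, intracellular brakes on the pathway, rose by 0.42 and 0.41, while Nodal itself, at 135 and 139 CPM with DMSO and 131 and 143 CPM with STM2457, and its coreceptor Tdgf1 were not called. Of 19 BMP genes 6 rose and 1 fell (4 and 0 without STM2457 replicate 1), among them Bmp4 (6.10 and 5.89 to 9.16 and 11.0 CPM; 0.75 ± 0.16) and the target Id1 (0.76 ± 0.15).

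The remaining large falls belonged to no single pathway. Cnih3, an AMPA receptor auxiliary protein, had the largest fall among the genes named by rank, from 6.49 and 5.84 CPM to 1.59 and 1.17 CPM (-2.16 ± 0.24, adjusted p = 8.24e-07). Pik3r3, a regulatory subunit of PI3 kinase, stood at 38.9 and 33.0 CPM with DMSO and 16.7 and 15.9 CPM with STM2457 (-1.14 ± 0.10), and Rec8, the meiotic cohesin subunit, at 41.4 and 38.5 CPM with DMSO and 21.5 and 16.3 CPM with STM2457 (-1.09 ± 0.11). Plk5 (-1.22 ± 0.16), Kirrel2 (-1.07 ± 0.17), Hint2 (-1.05 ± 0.13) and the p53 relative Trp73 (-0.91 ± 0.14) also fell. Among noncoding RNAs Neat1, the scaffold of paraspeckles, stood at 36.8 and 45.6 CPM with DMSO and 23.1 and 20.8 CPM with STM2457 (-0.91 ± 0.10); Malat1, its neighbour on chromosome 19, had a value of -0.02 and was not called. Of the 12 genes of the nuclear speckle and paraspeckle list 5 fell and 0 rose, the paraspeckle protein gene Rbm14 among them (-0.56); with ribosomal protein scaling 3 were lower and 1 higher, and the calls of Nono (adjusted p = 0.425) and Sfpq (0.667) were lost, as they were without some single libraries.

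Pluripotency lists had shares of called members near the background of 29.2%. These were 33.3% for core, 31.8% for primed and 30.8% for tested naive genes. Of 15 core genes 4 fell (26.7%, against a background of 14.0%) and 1 rose (6.67%, against 15.2%). Of 22 primed state genes 4 fell (18.2%) and 3 rose (13.6%), shares near the background of 14.0% and 15.2%. Their medians of -0.030 and -0.044 both turned positive with ribosomal protein scaling (0.11 and 0.10), and the counts then were 2 lower and 3 higher in the core list and 1 lower and 5 higher in the primed list. Pou5f1, which encodes OCT4, stood at 784 and 820.5 CPM with DMSO and 567 and 651 CPM with STM2457 (-0.40 ± 0.07, adjusted p = 0.000243; 0.173 in the model of all 14 libraries). Trim28, a corepressor that silences retroelements, stood at 855 and 874 CPM with DMSO and 640.2 and 592 CPM with STM2457 (-0.49 ± 0.07), and the RNA-binding protein gene Lin28a fell (-0.34 ± 0.06; adjusted p = 0.0712 with ribosomal protein scaling). L1td1, a retroelement-derived RNA-binding protein gene, went the other way, from 421 and 496 to 668 and 704 CPM (0.58 ± 0.07). Sox2 (-0.06), Nanog (0.02) and Sall4 (-0.07) were not called. In the primed list the POU factor gene Pou3f1 rose (0.49 ± 0.06) and Otx2 fell (-0.34 ± 0.09), as did the de novo DNA methyltransferase genes Dnmt3a (-0.36 ± 0.06) and Dnmt3b (-0.25 ± 0.06); Otx2 (adjusted p = 0.111) and Dnmt3b (0.351) were not called with ribosomal protein scaling. Of 13 tested naive state genes 4 rose and 0 fell: Klf5 (23.1 and 23.5 to 37.1 and 35.2 CPM; 0.63 ± 0.09), Tfcp2l1 (0.53 ± 0.16), Klf4 (2.51 and 2.56 to 3.92 and 4.69 CPM; 0.77 ± 0.23) and Sox13 (0.29 ± 0.08). The calls of Klf4 and Tfcp2l1 were lost with DESeq2 (adjusted p = 0.0883 and 0.0933), and without STM2457 replicate 2 (0.144 and 0.0837), where 2 of the list were higher and 1 lower; that of Tfcp2l1 was also lost without DMSO replicate 2 (0.14). Esrrb and Klf2 were not called, and Zfp42, Dppa3 and Prdm14 were too low to be tested. The naive genes that rose were 30.8% of those tested, against the background of 15.2%, and 4 of the 20 listed.

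Mitosis genes fell more often than they rose. E2F and replication genes were called in shares near the background, 17.9% lower and 12.8% higher against 14.0% and 15.2%. Of 36 mitosis and spindle checkpoint genes 17 were called lower and 3 higher, with a median of -0.17, whereas of 39 E2F and replication genes 7 were lower and 5 higher (5 and 3 without STM2457 replicate 2, 8 and 3 without DMSO replicate 2, 3 and 10 with ribosomal protein scaling). Cdc20, which activates the ubiquitin ligase of anaphase, stood at 323 and 323 CPM with DMSO and 195 and 201 CPM with STM2457 (-0.71 ± 0.06, adjusted p = 2.13e-08). Plk1, the mitotic kinase, stood at 181 and 175 CPM with DMSO and 133 and 131 CPM with STM2457 (-0.43 ± 0.06), and Ccnb1, cyclin B, at 264 and 264 CPM with DMSO and 225 and 211 CPM with STM2457 (-0.28 ± 0.06; adjusted p = 0.22 with ribosomal protein scaling and 0.0507 without STM2457 replicate 2). Replicates agreed closely in these genes and the arms were apart. Birc5, Nuf2 and Aurkb rose, by 0.36, 0.29 and 0.18; the call of Aurkb was lost with DESeq2 (adjusted p = 0.134), with RLE size factors (0.0525), with non-robust estimation (0.0551) and without DMSO replicate 2 (0.138) or STM2457 replicate 1 (0.554). CHR letters (TTTGAA) lay in 9 of 30 promoters matched to this list and in 10.1% of those of tested genes, in Cdc20 18 bases before the start, and CCAAT lay in 22 of 30 against 37%. With ribosomal protein scaling 7 genes of the list were lower and 3 higher.

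In the p53 list falls also outnumbered rises: 14 of 31 genes were called lower and 4 higher, with a median of -0.11 that turned to 0.036 with ribosomal protein scaling. Without STM2457 replicate 1 the lower calls numbered 9, and with ribosomal protein scaling 7. Trp53 itself stood at 341 and 317 CPM with DMSO and 245 and 242 CPM with STM2457 (-0.43 ± 0.06), Cdkn1a, the p21 cell cycle inhibitor, at 297 and 304 CPM with DMSO and 204 and 201 CPM with STM2457 (-0.57 ± 0.06, adjusted p = 4.79e-07), and the death effector Bax at 109.5 and 109 CPM with DMSO and 83.4 and 76.8 CPM with STM2457 (-0.45 ± 0.07). Mdm2, the ubiquitin ligase of p53, was not called (0.01), and Aen, a nuclease induced by p53, rose (0.37 ± 0.06). Of 38 splicing regulators 16 fell and 2 rose, with a median of -0.15. Hnrnph1 led them, from 559 and 588 to 343 and 358 CPM (-0.71 ± 0.06, adjusted p = 4.73e-08), followed by the polypyrimidine tract factor U2af2 (-0.42 ± 0.06). Without STM2457 replicate 1 the splicing list had 8 genes lower and 0 higher, and with ribosomal protein scaling 4 lower and 5 higher.

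Many subunits of the respiratory chain, the proteasome and the cytosolic ribosome fell, by small amounts. Of 78 subunits of the respiratory chain and ATP synthase encoded in the nucleus 46 were lower and 0 higher, with a median of -0.24. Sdhb, the iron-sulphur subunit of complex II, stood at 124 and 125 CPM with DMSO and 75.4 and 72.9 CPM with STM2457 (-0.74 ± 0.06, adjusted p = 2.3e-08), and the abundant Atp5b at 1957 and 1898 CPM with DMSO and 1577 and 1528 CPM with STM2457 (-0.31 ± 0.07; adjusted p = 0.132 with ribosomal protein scaling). Of the 13 messenger RNAs encoded in the mitochondrion itself 6 rose and 0 fell, with a median of 0.26, as in mt-Nd2 (735 and 658 to 884 and 822 CPM; 0.29 ± 0.07) and mt-Atp6 (0.46 ± 0.09). Without STM2457 replicate 1 only 1 of the 13 was called (adjusted p = 0.0553 for mt-Nd2), and the model of all 14 libraries called 0. Of 37 proteasome subunits 20 fell and 2 rose, with Psmb4 (317 and 309 to 219 and 211 CPM; -0.54 ± 0.06) and Psmd7 (212 and 206 to 331 and 331 CPM; 0.66 ± 0.06) at the ends. Of 82 cytosolic ribosomal protein genes 31 fell and 0 rose (20 and 1 without STM2457 replicate 2), with a median of -0.16, and their share of all counts was 6.80% and 6.83% with DMSO and 6.49% and 6.13% with STM2457. The 76 mitochondrial ribosomal protein genes split, with 25 higher and 19 lower (18 and 9 without STM2457 replicate 1, 22 and 10 without STM2457 replicate 2, 33 and 2 with ribosomal protein scaling). Mrpl43 went from 54.8 and 57.2 to 117 and 117 CPM (1.06 ± 0.07) and Mrps2 from 99.6 and 91.3 to 186 and 193 CPM (0.99 ± 0.06), while Mrps14 went from 54.6 and 63.6 to 40.9 and 39.8 CPM (-0.55 ± 0.08). With ribosomal protein scaling 24 respiratory subunits were lower and 3 higher, 10 proteasome subunits were lower and 5 higher, and 6 cytosolic ribosomal genes were lower and 3 higher. That scaling holds the summed counts of the cytosolic ribosomal genes equal across libraries. Their smaller number of falls therefore follows from it and is no check on them.

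Metabolic and stress lists were mixed. Of 25 cholesterol genes 11 rose and 1 fell (median 0.24), including Msmo1, a sterol methyl oxidase (147 and 172 to 235 and 238 CPM; 0.57 ± 0.07), Cyp51 (0.56 ± 0.07) and Hmgcs1 (0.37 ± 0.06). Of 28 hypoxia and glycolysis genes 9 rose and 3 fell; without STM2457 replicate 1 the counts were 5 and 4, and without DMSO replicate 1 or STM2457 replicate 2 0 were lower. The glucose transporter gene Slc2a1 stood at 612 and 587 CPM with DMSO and 956 and 804 CPM with STM2457 (0.55 ± 0.08), and Vegfa rose by 0.47 ± 0.08, whereas Gapdh was not called. Of 23 genes of the NRF2 and aryl hydrocarbon receptor list 7 rose and 3 fell, led by heme oxygenase Hmox1 (131 and 124 to 204 and 209 CPM; 0.70 ± 0.06) and by Nfe2l2, which encodes NRF2 (78.0 and 85.2 to 132 and 131 CPM; 0.69 ± 0.07). Of 23 integrated stress genes 9 rose and 3 fell (8 and 1 without STM2457 replicate 2), with Trib3 (0.74 ± 0.10) and Chac1 (0.80 ± 0.15) higher and the serine synthesis gene Phgdh lower (-0.37 ± 0.06). Of 21 Hippo genes 10 rose and 2 fell (6 and 0 without STM2457 replicate 2), and Ccn1, a classical YAP target, stood at 449 and 503 CPM with DMSO and 711 and 722 CPM with STM2457 (0.59 ± 0.07). Falls were at least as many in other lists: 4 against 3 rises among unfolded protein response genes, 6 against 2 among autophagy and lysosome genes, and 11 against 5 among 27 mTORC1 genes. The unfolded protein response shares, 19% lower and 14.3% higher, were near the background of 14.0% and 15.2%. Of the 31 autophagy and lysosome genes 19.4% were lower and 6.45% higher. Their share called in either direction, 25.8%, was below the background of 29.2%. The mTORC1 shares were 40.7% lower and 18.5% higher. With ribosomal protein scaling these 3 lists had 1, 2 and 1 lower and 6, 5 and 7 higher, and without STM2457 replicate 2 they had 2, 4 and 5 lower and 1, 1 and 3 higher; DESeq2 called 6 mTORC1 genes lower and 1 higher.

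The transcripts that rose and those that fell differed in exon structure. Tested protein-coding genes were split into quartiles by exon junction density, the junctions per kb of the longest transcript in GENCODE M21. In the quartile with the fewest junctions 26.9% of genes were called higher and 6.82% lower; in the next 19.8% and 10.6%, then 13.4% and 15.5%, and in the quartile with the most 6.39% and 25.8%. The median log2 fold change went from 0.13 through 0.052 and -0.014 to -0.10. Called genes had a median of 1.77 junctions per kb if higher (2162 genes) and 4.03 if lower (1909 genes), against 2.81 in genes not called. Levels differed along the same axis, with a median of 19.4 CPM in the first quartile and 42.2 CPM in the last; their part in the pattern was not tested. The quartile plot shows the 2 shares crossing.

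**Figure D4:**
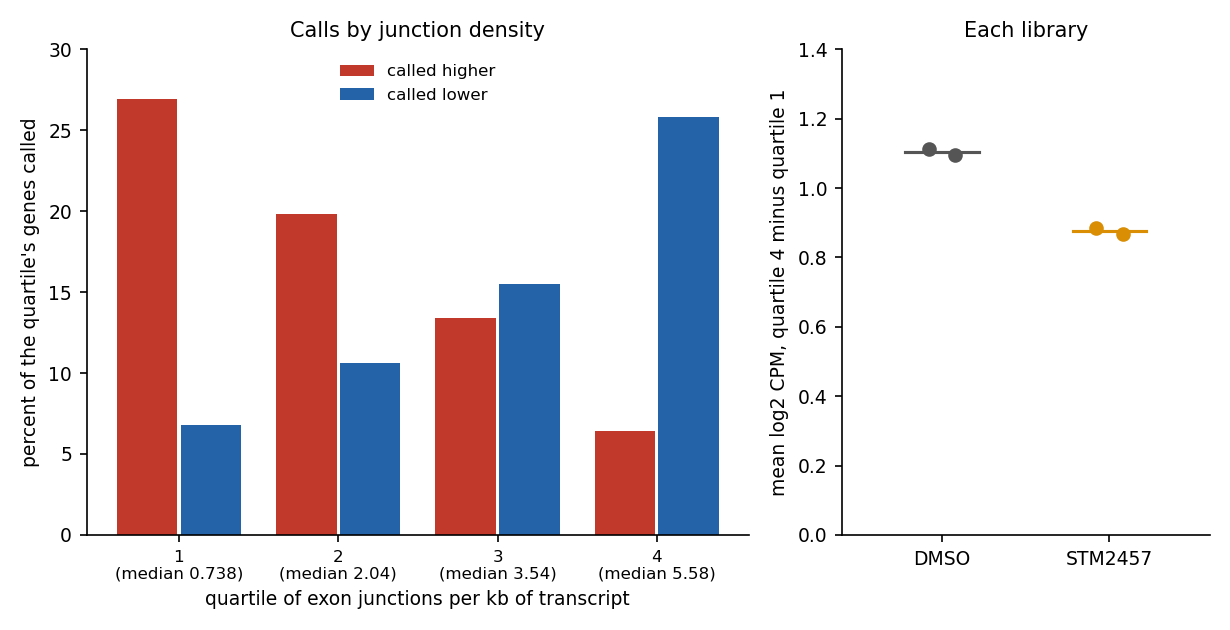
Left, the percent of genes called higher (red) and lower (blue) in each quartile of exon junctions per kb, with the quartile's median density under each number; right, the mean log2 CPM of the quartile with the most junctions minus that of the quartile with the fewest, per library (points) and per arm (bars). Higher calls fall from 26.9% to 6.39% and lower calls climb from 6.82% to 25.8%, and both STM2457 libraries lie below both DMSO libraries.

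The same shift could be read in each library. The mean log2 CPM of the quartile with the most junctions exceeded that of the quartile with the fewest by 1.11 and 1.09 with DMSO and by 0.886 and 0.868 with STM2457, a change of -0.23 (SD 0.012 and 0.013 within the arms; two-sided exact permutation test at the smallest p that 2 against 2 libraries can give, which is above 0.05). For the length of the longest exon the change was 0.13, in the opposite direction, with 8.93% of genes higher and 23.8% lower in the quartile of short exons and 20.1% and 9.26% in that of long ones. From the shortest to the longest quartile of transcripts the share called higher went from 14.0% to 17.3% and the share called lower from 19.6% to 11.7%, with medians of -0.041 and 0.028. From the lowest to the highest quartile of GGAC density, GGAC being the core of the m6A motif, the shares went from 14.9% to 18.1% higher and from 15% to 14.4% lower. The changes per library between end quartiles were 0.041 and 0.028 (exact permutation p = 0.667 for both). Genes with a single exon numbered 385, of which 85 (22.1%) were higher and 27 (7.01%) lower, against 16.4% and 14.9% of genes with introns.

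Junction densities of some gene lists are given beside their calls. Zfp-named zinc finger genes, transcription factors encoded largely in 1 long last exon (median 1.10 junctions per kb, against 2.44 over all tested genes with a structure), had 84 of 336 members higher and 13 lower (50 higher with DESeq2 or without STM2457 replicate 2). Immediate early genes had a median of 0.884 junctions per kb, while the proteasome, ribosomal protein, mitosis and respiratory lists had 5.34, 4.47, 4.36 and 4.11. Within the mitochondrial ribosomal proteins the 25 members that rose had a median of 2.04 and the 19 that fell 3.73, and within the respiratory chain assembly factors the 8 that rose had 0.675 and the 8 that fell 3.55; without STM2457 replicate 2 the assembly factors called were 9 higher and 4 lower. Single genes did not always follow: Fzd10 and Neat1, with 1 exon each, fell, and Adgrb1, an adhesion receptor with 31 exons, rose from 5.23 and 3.49 to 9.91 and 10.6 CPM. The splicing and cholesterol lists, at 3.80 and 3.23 junctions per kb, went in opposite directions. The speckle and paraspeckle list had 0.326 junctions per kb with 5 of 12 lower and the p53 list 1.75 with 14 of 31 lower, while the interferon list had 3.33 with 12 of 29 higher and the hypoxia list 3.80 with 9 of 28 higher.

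The series title names X to autosome dosage, so the X chromosome was read separately. Xist (ENSMUSG00000086503) stood at 1095 and 1020.5 CPM with DMSO and 1052 and 1103 CPM with STM2457 (0.03 ± 0.07, adjusted p = 0.812), and the 4 libraries interleaved. Tsix, its antisense partner, which the genotype disrupts, stood at 0.654 and 0.417 CPM with DMSO and 0.636 and 0.704 CPM with STM2457 and was not called; whether reads were assigned by strand is not stated in the labels, so reads of these overlapping genes cannot be told apart. Of 475 tested X-linked protein-coding genes 65 (13.7%) were higher and 84 (17.7%) lower, against 16.7% and 14.6% of 12531 autosomal ones. The median log2 fold changes were -0.031 for X-linked and 0.0091 for autosomal genes. Some single autosomes had a share like that of the X in 1 direction. Chromosome 3 had 13.6% higher and 15.1% lower, with a median of -0.013, and chromosome 15 had 17% and 17.6%, with a median of -0.018. The mean log2 CPM of X-linked genes exceeded that of autosomal genes by 0.391 and 0.416 with DMSO and by 0.375 and 0.372 with STM2457, a change of -0.030 (exact permutation test again at its smallest possible p). Parental alleles were not analysed here.

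Single X-linked genes moved in both directions. Eras, a constitutively active RAS of embryonic cells, went from 6.81 and 6.05 CPM to 15.6 and 12.5 CPM (1.12 ± 0.15, adjusted p = 1.12e-05), and Hdac8, a histone deacetylase, from 23.9 and 29.4 to 14.5 and 17.6 CPM (-0.73 ± 0.12, adjusted p = 9.03e-05). Rlim, the ubiquitin ligase that activates Xist, rose from 153 and 131 to 191 and 204 CPM (0.48 ± 0.07), and Ftx and Jpx, noncoding genes near Xist, had values of 0.02 and -0.14 and were not called. Of 21 genes for proteins that Xist works through 3 rose and 5 fell (3 and 3 without STM2457 replicate 1, 5 and 1 with ribosomal protein scaling): Rybp of Polycomb complex 1 went from 90.9 and 89.2 to 143 and 137 CPM (0.64 ± 0.06), Ezh2 of complex 2 from 179 and 187 to 135 and 144 CPM (-0.39 ± 0.06), and Spen, a silencing factor that binds Xist, was not called (-0.13). The shares of these 21 genes were 14.3% higher, near the background of 15.2%, and 23.8% lower, against 14.0%. Of 11 genes that escape silencing 2 rose and 2 fell, 18.2% each way, against 15.2% and 14.0% of all tested genes. Among the risers was Utp14a (158 and 157 to 217 and 229 CPM). The list's median of -0.011 became 0.15 without STM2457 replicate 1.

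Whether EpiSC responded differently from the other lines was tested on the STM2457 effect itself. In the model of all 14 libraries the EpiSC effect minus the mean of the XEN and TSC effects was called for 2 of 18430 genes (0.0109%): Phlda1, higher in EpiSC, and Chst15, lower. Each direction held 1 gene (0.00543%), 898 genes had an unadjusted p under 0.05, and 0 genes were called when any 1 EpiSC library was left out. EpiSC were therefore also set against TSC alone on 8 libraries, an alternative chosen after seeing the data. There 683 of 16140 genes (4.23%) differed, 336 with the higher response in EpiSC (2.08%) and 347 with the lower (2.15%). EpiSC and TSC also differ in medium and genotype, which cannot be told apart from the cell type.

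NF-kB targets, immediate early genes and cholesterol genes stood out in this contrast by their counts. Of 25 NF-kB targets 7 had the higher response in EpiSC and 0 the lower, with medians of 0.51 in EpiSC and -0.035 in TSC. Csf1 rose by 1.30 in EpiSC against -0.07 in TSC, where its control level was 3.10 CPM (difference 1.37 ± 0.20, adjusted p = 6.32e-05), and Tnfaip2 by 0.95 against -0.41 (1.35 ± 0.17, adjusted p = 7.28e-06). The difference was not called for Ltb or Cxcl10. Of 27 immediate early genes 8 had the higher response in EpiSC and 0 the lower, and so had 8 of 28 hypoxia and glycolysis genes. Phlda1 rose by 0.89 in EpiSC and had -0.34 in TSC (1.23 ± 0.14, adjusted p = 1.32e-06).

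Cholesterol genes showed the reverse. All but 7 of the 25 had a lower response in EpiSC than in TSC, 18 in number, and none a higher one; the medians were 0.24 in EpiSC and 0.80 in TSC. Msmo1 rose in both lines, by 0.57 and 1.89 (difference -1.32 ± 0.10, adjusted p = 1.59e-09). Of the 32 WNT genes 5 also had the lower response in EpiSC, and Fzd10, which fell by 1.10 on the log2 scale in EpiSC, had 0.34 in TSC (-1.44 ± 0.20, adjusted p = 4.02e-05). Differences were called for 3 of 36 mitosis, 0 of 37 proteasome, 2 of 78 respiratory and 1 of 82 ribosomal protein genes. Over all tested genes the share was 4.23%. The medians of these 4 lists in TSC were -0.19, -0.29, -0.22 and -0.13. A small number of called differences does not show that the lines responded alike. The panels of EpiSC against TSC fold changes show the members one by one.

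**Figure D5:**
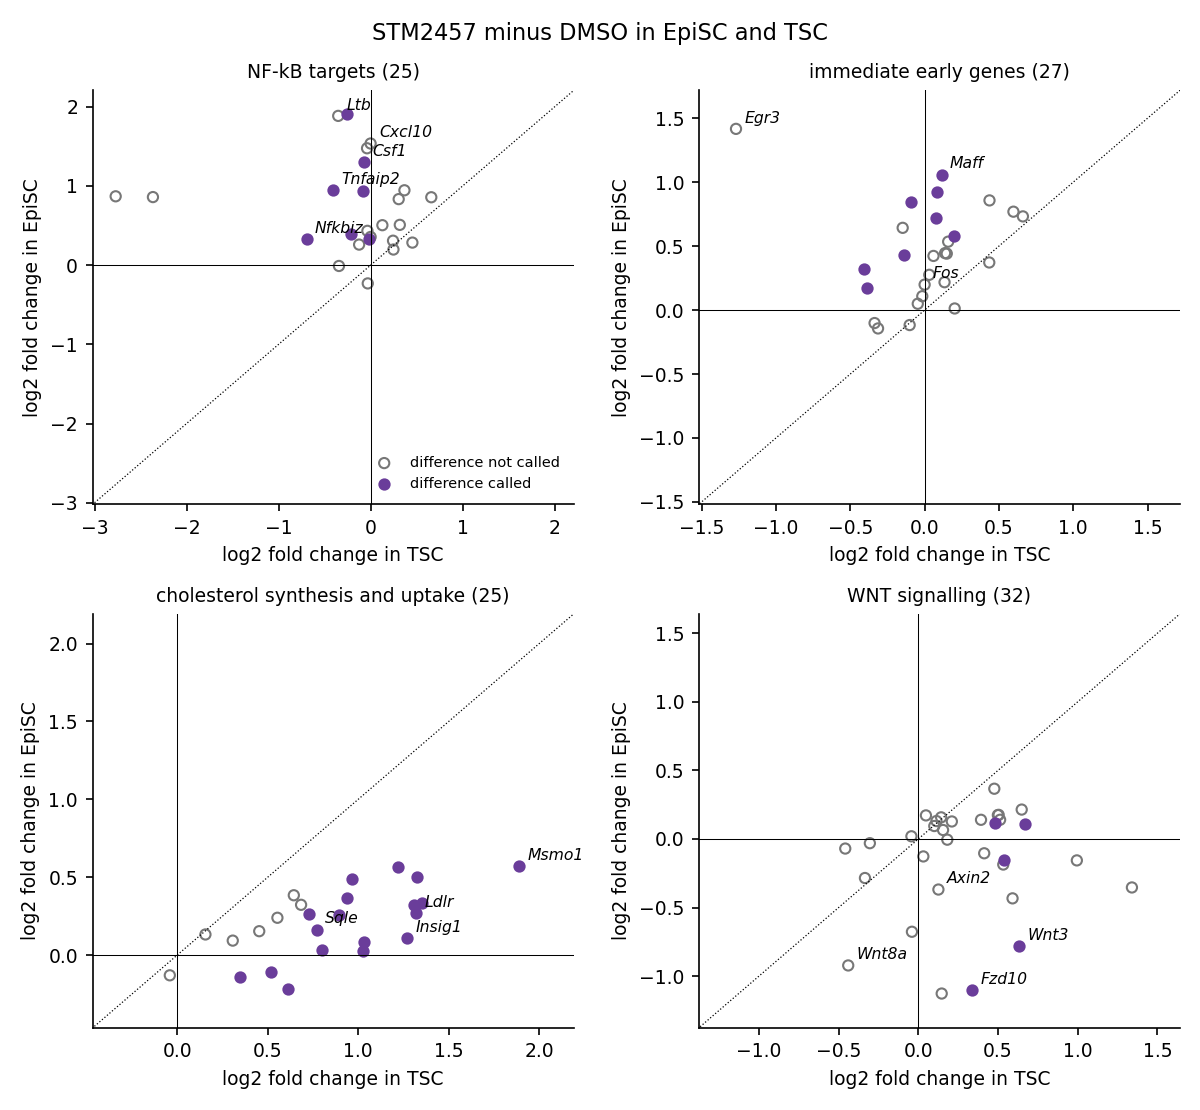
Each point is a tested member of the list named above the panel, with its log2 fold change (STM2457 minus DMSO) in TSC on the horizontal and in EpiSC on the vertical axis; filled points mark genes whose difference between lines was called, and the dotted line marks equal change. NF-kB targets and immediate early genes lie mostly above the line, and cholesterol genes below it, with 18 of 25 filled.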

How the data were processed

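Total RNA of 4 EpiSC libraries, and of 10 XEN and TSC libraries used for comparison, was measured by RNA-seq. The authors deposited 1 table of raw counts per gene; the submitters' processing notes name FastQC, Trim Galore, STAR, featureCounts and GRCm39/mm39, without versions or a strand setting. Samples were grouped by their labels. Genes were filtered by filterByExpr (minimum count 10, minimum total 15) and tested in edgeR 4.0.16 (R 4.3.3; TMM scaling, robust quasi-likelihood fit, two-sided), with the EpiSC libraries fitted alone and Benjamini-Hochberg adjustment over all tested genes. The standard error is the log2 fold change divided by the root of F. Differences between lines came from a model of all 14 libraries and, added after seeing the data, of 8. Total counts ran from 18640099 to 21097380 a library, which limits the precision of low genes. Symbols and transcript structures were taken from GENCODE M21 by gene identifier, and 3281 identifiers had no entry. Promoters were read from RefSeq (GRCm38.p6). The labels do not say that the replicate numbers pair the samples. Deviations from the arm mean in DMSO replicate 1 and STM2457 replicate 1 had a correlation of 0.0032 over genes. With 2 libraries per arm this value cannot settle whether they were paired. The tests were checked on simulated data.

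Genes named were Mettl3, Xist and Tsix; the 15 largest rises and falls among called genes with at least 5 CPM in the higher arm and a symbol that is no predicted, mitochondrial or small RNA gene; up to 5 members per list by p; the 5 largest rises and falls on the X; the 10 most abundant called genes of each direction; the 5 largest differences between lines; and list members that complete a pathway, with 3 genes chosen after their values were seen. Members and lists were chosen with earlier results of these data known. A few single genes are not reported here. Alternatives were DESeq2 1.42.0, other scaling, filters and models, a fit blocked by replicate number, and omission of 1 EpiSC library at a time.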

Additional observations from a re-analysis of the deposited data

Results flagged for a closer look

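The genes given here were called in a test of the difference in STM2457 effect between EpiSC and other lines. Only Phlda1 and Chst15 were called against the mean of XEN and TSC. The others were called against TSC alone, in the contrast added after seeing the data. Against the mean of XEN and TSC in the model of all 14 libraries, the difference was 1.29 for Phlda1 and -1.53 for Chst15, a chondroitin sulfotransferase gene, on the log2 scale; neither was called when any 1 EpiSC library was left out.

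Against TSC alone, on 8 libraries, a higher response in EpiSC was found for Csf1 (difference 1.37 ± 0.20, adjusted p = 6.32e-05 in edgeR), Tnfaip2 (1.35 ± 0.17), Phlda1 (1.23 ± 0.14), Sema7a (1.07 ± 0.18), the signalling regulator Rgs16 (1.22 ± 0.27) and Spp1, which encodes osteopontin (1.13 ± 0.18). Spp1 went from 9.65 and 10.7 CPM with DMSO to 17.5 and 18.7 CPM with STM2457 in EpiSC (0.83 ± 0.13), and Rgs16 from 7.19 and 6.36 to 9.91 and 8.83 CPM (0.46 ± 0.16), while in TSC their values were -0.30 and -0.75.

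A lower response in EpiSC was found for Trp73 (-1.74 ± 0.32), Slc27a2, a fatty acid transporter gene (-1.54 ± 0.22), Fzd10 (-1.44 ± 0.20), Msmo1 (-1.32 ± 0.10) and Map2k6, a kinase of the p38 pathway (-1.29 ± 0.26). Trp73 had a value of -0.91 in EpiSC and 0.83 in TSC, where its mean level was low (1.22 CPM with DMSO and 2.19 CPM with STM2457). Slc27a2 was not called in EpiSC (-0.27, adjusted p = 0.0927 in edgeR) and had 1.27 in TSC. Rec8 (-0.66 ± 0.15), Hint2 (-0.60 ± 0.18) and Neat1 (-0.43 ± 0.12) had negative values in both lines and lower ones in EpiSC; in TSC they were -0.42, -0.45 and -0.49.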

How the results depend on the processing

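The 4321 calls in EpiSC (2248 higher, 2073 lower) became 2868 with DESeq2 (1448 higher), 4106 higher and 674 lower with ribosomal protein scaling, 309 in the model of all 14 libraries (235 higher, 74 lower) and 58 against a fold minimum of 1.5 (46 higher, 12 lower). They stayed within 1.5 times with RLE size factors (4346), no filter (4313), a minimum count of 50 (4270) and non-robust estimation (4286). Leaving out each EpiSC library gave 3033 to 3844 calls (1641 to 1940 higher, 1392 to 1904 lower); the lone library of an arm was then assumed to vary like the others. With the replicate block 4872 genes were called (2495 higher, 2377 lower), but the labels give only a shared number and do not state a pairing. Of 383 named genes 322 were called; 71 kept the call in every alternative, 0 reversed, 250 lost it in the model of all 14 libraries, 57 with ribosomal protein scaling, 29 with DESeq2 and 28 to 46 when 1 library was left out. The X to autosome change of -0.030 was -0.10 for medians in place of means and -0.042 to -0.018 without 1 library. The 2 differences from the mean of XEN and TSC became 1 with a minimum count of 50 (0 higher), 153 with the replicate block (85 higher, 68 lower), 37 with DESeq2 (19 higher, 18 lower), 683 against TSC alone (336 higher, 347 lower) and 0 without any 1 EpiSC library (0 higher, 0 lower; 570 to 638 at an unadjusted p under 0.05). The cause of these changes was not tested, beyond the fewer libraries or stricter criterion that an alternative sets by its construction.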

Other observations

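Chromatin genes in EpiSC moved in both directions. Of 15 DNA methylation genes 4 fell and 4 rose (3 and 2 without DMSO replicate 1 or STM2457 replicate 1, 4 and 2 without STM2457 replicate 2, 1 and 5 with ribosomal protein scaling): besides the de novo enzymes, the maintenance pair Dnmt1 and Uhrf1 fell, Uhrf1 from 227 and 232 CPM with DMSO to 179 and 183 CPM with STM2457 (-0.34 ± 0.06; adjusted p = 0.0596 with ribosomal protein scaling), and the methyl-CpG reader Zbtb38 rose from 12.4 and 11.4 to 19.9 and 19.2 CPM (0.72 ± 0.12). Of 33 Polycomb genes 7 rose and 7 fell (6 and 3 without STM2457 replicate 1, 6 and 4 without STM2457 replicate 2, 12 and 3 with ribosomal protein scaling). The falls included Rbbp4 (-0.36 ± 0.06), a complex 2 gene like Ezh2, and the rises included Ring1 (0.58 ± 0.12) and Pcgf5 (0.45 ± 0.10) of complex 1. Of 33 imprinted genes 4 rose (12.1%) and 5 fell (15.2%), shares near the background of 15.2% and 14.0%. The noncoding RNAs Meg3 (500.2 and 521 to 394 and 391 CPM; -0.38 ± 0.06) and Rian (-0.29 ± 0.07), which lie in 1 imprinted cluster on chromosome 12, fell (adjusted p = 0.179 for Rian with ribosomal protein scaling), and Zdbf2 (54.5 and 55.2 to 78.7 and 83.8 CPM; 0.57 ± 0.07) and Mcts2 (0.76 ± 0.10) rose.

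Cell death genes were divided evenly, with 6 of 26 higher and 6 lower (7 and 3 without STM2457 replicate 1, 9 and 2 with ribosomal protein scaling). Apaf1, the core of the apoptosome, went from 119 and 121 to 82.3 and 87.2 CPM (-0.50 ± 0.06), and Casp8, the caspase of death receptors, from 14.3 and 14.1 to 22.8 and 20.7 CPM (0.61 ± 0.11). Peroxisome assembly genes were divided as well, 4 of 15 in each direction (2 higher without DMSO replicate 1 or STM2457 replicate 2), with Pex6 at 48.3 and 48.1 CPM with DMSO and 28.3 and 27.5 CPM with STM2457 (-0.79 ± 0.08) and Pex13 at 40.8 and 44.5 CPM with DMSO and 67.8 and 63.5 CPM with STM2457 (0.62 ± 0.08). In both lists the 2 examples lay on opposite sides with no overlap between the arms. Of 17 circadian genes 5 rose and 1 fell (2 and 0 with DESeq2, 3 and 0 without DMSO replicate 2 or STM2457 replicate 1), and besides Bhlhe40 the rises included Nfil3 (0.59 ± 0.13). Of 30 ribosome biogenesis genes 10 fell and 5 rose, nucleolin, Ncl, going from 1638 and 1728 to 2259 and 2450.4 CPM (0.48 ± 0.07); with ribosomal protein scaling 2 were lower and 11 higher, and the median moved from -0.028 to 0.115, while without STM2457 replicate 1 or STM2457 replicate 2 6 were lower, and without DMSO replicate 1 7 were lower and 8 higher. Of 18 Notch genes 3 rose and 2 fell (7 and 1 with ribosomal protein scaling, 2 and 1 without STM2457 replicate 2), with Maml1 (0.56 ± 0.07) and Notch3 (-0.37 ± 0.07) at the ends of those called. The Notch shares, 16.7% higher and 11.1% lower, were near the background of 15.2% and 14.0%. Of 11 definitive endoderm genes 3 rose (27.3%) and 0 fell, Trh among them (45.0 and 48.3 to 61.9 and 62.5 CPM; 0.41 ± 0.08).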
